A study of Zea mays with 9 samples.

Results

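In germinating maize seeds, 114 of 39301 genes were much lower with sodium chloride than in the CK group and were back near their CK level where melatonin was given with the salt. RNA sequencing had been done on 9 libraries of seeds at germination, in 3 groups of 3 biological replicates labelled CK, NaCl and NaCl+MT. MT stands for melatonin, which the series title names as exogenous melatonin under salt stress, and CK commonly denotes an untreated control in such designs, although the labels do not spell it out. All 3 groups share the species and are given as seeds at germination, which does not show that they had advanced equally far. The labels give no variety, no dose, no duration and no order of the treatments, and no group with melatonin alone was analysed here, so melatonin was seen only together with salt.

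The values are FPKM, which counts sequenced fragments relative to gene length and to the library's total, as the authors deposited them. The 114 genes were chosen on these same values. For each gene the mean FPKM of a group was taken as log2(mean + 1), so that 1 unit is about a doubling and genes near 0 are drawn together. A member had a difference NaCl minus CK of -2 or lower and a difference NaCl+MT minus CK of -0.5 or higher, and none of its NaCl libraries reached its lowest CK or NaCl+MT library. All contrasts between the groups were therefore used in the choice, and the members' levels are given as a description, with no test. Named genes outside the set were tested with limma, a linear model with a shared estimate of the spread. Those p-values set a difference between groups against the spread between replicates, estimated over all 9 libraries. The limma values given with an SE are differences between group means of log2(FPKM + 1). Except for BX14 and bx8, the genes with such values were named because their change in NaCl against CK was among the largest of their list. They are not typical of it.

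Salt slows water uptake into a seed by lowering the water potential outside it, and sodium and chloride ions that enter the embryo are toxic at high levels. A maize seed that germinates draws on phosphate and carbon reserves of the aleurone, scutellum and endosperm, loosens the walls of the growing root and coleoptile, resumes cell division, and makes benzoxazinoids, the main defence compounds of young maize. Melatonin is an indoleamine that plants also make, known for lowering oxidative damage and for acting on several hormone pathways.

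Absolute depth is unknown, since no read totals accompany the values. Steps between the lowest FPKM values, where 1 step is 1 read, gave a relative depth of 0.538 to 1.82 with CK replicate 1 set to 1; NaCl replicate 3 was the shallowest library. The 1.82 of CK replicate 2 rests on a step that was taken as doubled, since 81.9% of its low values were then whole reads against 47.7% otherwise. NaCl replicate 3 also had the most genes listed at 0, 12558, against 9986 to 10802 in the other 8 libraries. The seed label was checked with tissue markers. All 23 genes of an embryo and aleurone list were above 0 in every group, with a summed level of 1031 to 1160 FPKM in CK, 1519 to 2081 in NaCl and 951 to 1357 in NaCl+MT. The gene under the symbol RAB15 made up most of these sums, with means of 813, 1467 and 818 FPKM in CK, NaCl and NaCl+MT. By limma, 4 of 21 tested genes of the list rose and 2 fell with NaCl against CK, where 13.6% and 12.4% of all tested genes did. Of 24 genes with a zein symbol, the storage proteins of maize endosperm, the highest group mean was 1.86 FPKM, and 10, 15 and 12 of them were listed at 0 in all 3 libraries of CK, NaCl and NaCl+MT. An endosperm list of 35 genes, which holds those zeins beside starch synthesis genes, summed to 45.6 to 57.1 FPKM in CK, 240.0 to 389 in NaCl and 69.6 to 89.7 in NaCl+MT. The gene sh1, a sucrose synthase, made up most of these sums, with means of 39.2, 287 and 66.6 FPKM in CK, NaCl and NaCl+MT. Of 7 tested genes of this list, 1 rose and none fell with NaCl against CK by limma. Root markers summed to 24.2 to 30.1 FPKM in CK, 14.1 to 20.5 in NaCl and 26.2 to 27.7 in NaCl+MT, and a photosynthesis list for green tissue to 1149.5 to 1609.9, 810.0 to 1010.3 and 1114 to 1361. C4ppdkZm1 led the photosynthesis list, with means of 873, 511 and 766 FPKM in CK, NaCl and NaCl+MT. The sums of these lists thus moved with the members, or against them, between the groups, although single genes made up much of several sums. The part of these tissues in the members' levels was not tested.

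The typical member was far lower in NaCl than in CK and near its CK level in NaCl+MT. Over the 114 genes, the median of the CK means was 13.96 FPKM, with the quartiles at 7.77 and 58.4 and a range of 3.62 to 3069. The median was 1.38 FPKM in NaCl (range 0 to 553) and 12.9 in NaCl+MT (range 2.48 to 2566). As a share of the CK mean of the same gene, the NaCl mean had a median of 11.4% (range 0% to 23.5%) and the NaCl+MT mean a median of 86.1% (range 65.6% to 201%). On the log2(mean FPKM + 1) scale the median difference NaCl minus CK was -2.56, against 0.04 over the 22379 genes that reached 1 FPKM in 3 or more libraries and are called tested here, and the median difference NaCl+MT minus CK was -0.18 against 0.07. Since these are bulk seed samples, fewer cells of a type and less RNA per cell cannot be told apart.

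**Figure D1:**
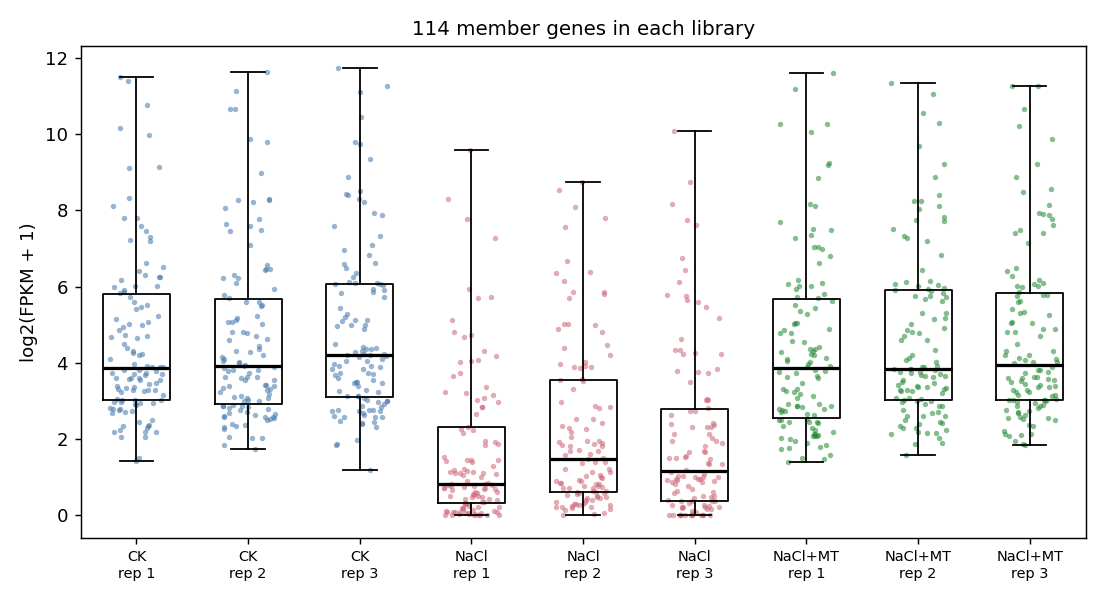
Level of the 114 genes in each library, as log2(FPKM + 1) on the vertical axis; each point is 1 gene, the box spans the quartiles, the line is the median and the whiskers reach the lowest and highest gene. The 3 NaCl libraries lie below the 6 others, with medians of 0.82, 1.49 and 1.16 against 3.84 to 4.19.

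The members carried 2.64, 2.85 and 3.13% of all FPKM in CK replicates 1, 2 and 3, then 0.355, 0.455 and 0.576% in the NaCl libraries and 2.61, 2.65 and 2.67% in the NaCl+MT libraries. The 3 NaCl+MT libraries were close to each other and the CK libraries spread more widely. Complete loss of a transcript was rare. Members listed at 0 numbered 7, 1 and 13 in NaCl replicates 1, 2 and 3, and the last of these is the shallowest library. GRMZM2G446454 was the 1 member listed at 0 in all 3 NaCl libraries, at 3.15, 4.68 and 4.03 FPKM in CK and 2.47, 3.44 and 4.12 in NaCl+MT. In 48 members the NaCl mean was under 1 FPKM, while 45 members kept at least 1 FPKM in every NaCl library. So the word silenced, taken as a listing at 0 in every NaCl library, describes 1 of them, and lowered describes all.

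Members had low, middle and high CK levels, above the 3 FPKM that a CK mean must reach for a difference of -2 to be possible. Of the 114 genes, 22 had a difference NaCl minus CK of -3 or lower, 3 of -4 or lower, and 53 lay between -2 and -2.5. The 40 members with a CK mean under 10 FPKM kept a median of 5.54% of the CK level in NaCl and reached 76.7% in NaCl+MT. The 55 members from 10 to 100 FPKM kept 12.1% and reached 88.1%, and the 19 members of 100 FPKM or more kept 16.1% and reached 88.9%. The threshold is set on log2(mean + 1), which asks a larger proportional drop of low genes, so this order is in part built into the choice.

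Most members stayed a little short of CK in NaCl+MT. The NaCl+MT mean was below the CK mean in 82 members and above it in 32; when libraries were rescaled by the median ratio of their genes, the numbers were 89 and 25. Every NaCl+MT library was above every CK library in 7 members, 6.14% of them, where 21.1% of all tested genes had that order. In 12 members, 10.5%, every NaCl+MT library was below every CK library, and among all tested genes this share was 10%. Both orders bear on a contrast that the choice used, and nothing is read from them.

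**Figure D2:**
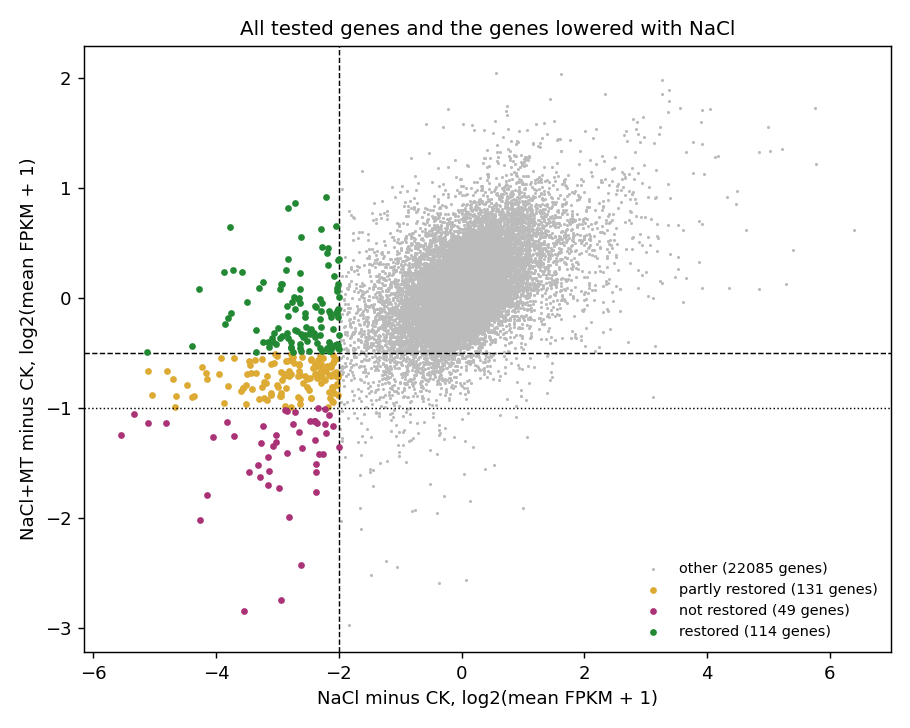
Difference NaCl minus CK (horizontal) against NaCl+MT minus CK (vertical), both on the log2(mean FPKM + 1) scale, for 22379 tested genes. The 294 genes at -2 or lower on the horizontal axis are coloured by their level in NaCl+MT, with the 114 members above the dashed line at -0.5.

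A drop of this size with salt was seen in 294 genes, 1.31% of those tested. Of these, 114 (38.8%) met the limit for the level in NaCl+MT, 131 (44.6%) lay between that limit and a difference NaCl+MT minus CK of -1, and 49 (16.7%) were at -1 or lower. The requirement that no NaCl library reach the other groups removed none of the 114, and 13.1% of all tested genes had all 3 NaCl libraries below the other 6. The edge of the set is a matter of degree. Just inside the first limit were GRMZM2G024708 at -2, GRMZM2G168502 at -2.0011 and bHLH137 at -2.0012, and just outside it CSLD1 (GRMZM2G015886) at -1.9999, then GRMZM5G819523 and GRMZM2G148930 at -1.99. Just inside the second limit were GRMZM2G002147, GRMZM2G171248 and AC217560.3_FG001, all at -0.49, and just outside it GRMZM2G030284, GRMZM2G136453 and GRMZM2G318849, all at -0.51.

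The other genes of the 294 had lower levels in NaCl+MT relative to CK, by definition. The median CK mean was 11.2 FPKM in the 131 genes between the limits and 30.1 in the 49 genes at -1 or lower, beside 13.96 in the members, and their NaCl medians were 0.628 and 1.14 FPKM. Among the 131 were bx1, the indole-forming first enzyme of the benzoxazinoid pathway, adh2, an alcohol dehydrogenase, phytase2, and the mitotic genes cyc3, cyclin8 and mad2. Among the 49 were ivr2, an invertase, xet1, a xyloglucan-modifying enzyme, and CCD8, whose product acts in strigolactone synthesis. No test was made between these sets, because their levels define them.

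The NaCl libraries were uneven within their group. Against the CK mean of each gene, the median member stood at 5.79, 11.5 and 9.26% in NaCl replicates 1, 2 and 3, and at 75.2, 90.5 and 91.3% in NaCl+MT replicates 1, 2 and 3. NaCl replicate 1 was the lowest of its group in 70 members, replicate 3 in 36 and replicate 2 in 8, while over all tested genes these shares were 44.5, 25.3 and 30.2%. NaCl+MT replicate 1 was the lowest of its group in 68 members, or 59.6%, against 41.4% of all tested genes. The coefficient of variation between the 3 replicates had a median of 65.1% in NaCl, 26.7% in CK and 18.1% in NaCl+MT, and over all tested genes 20.8, 15.5 and 12.6%. With each of the 9 libraries left out in turn, 48 members met the rule every time and 82 met it in at least 7 of the 9 cases. Of the 23 members with a gene name, 11 met it every time. The named members bx2, bx3, xth1, LOL3, TMT, pcr1 and bHLH173 met it in 7 cases, and hsbp1, expB4, KIN13 and bHLH137 in 6. Without NaCl replicate 2 the rule took 161 genes, and without each other library 96 or more.

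**Figure D3:**
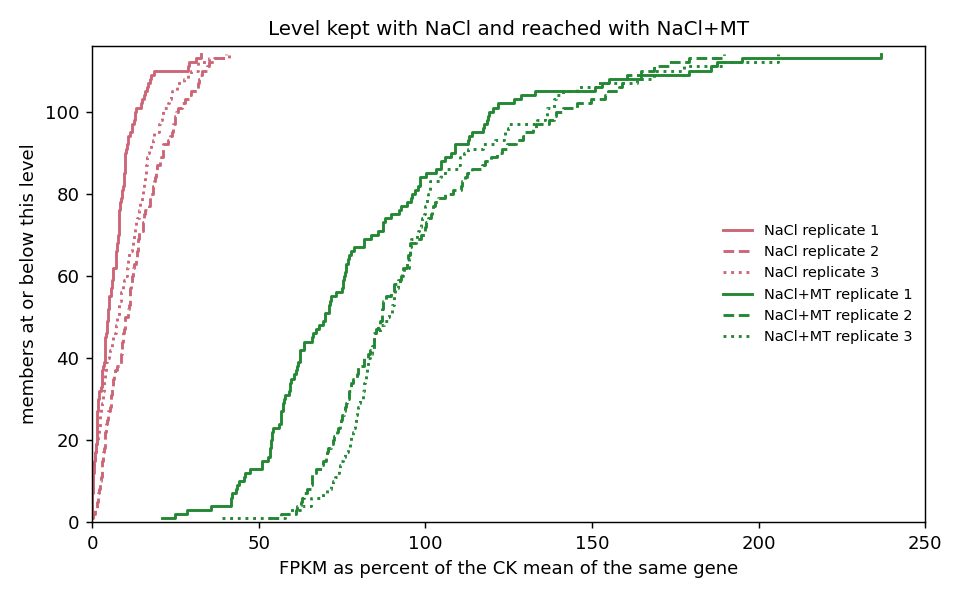
Number of the 114 members (vertical) whose FPKM was at or below a given percent of their own CK mean (horizontal), with 1 line for each NaCl and NaCl+MT library. The NaCl lines rise steeply near 0, with medians of 5.79 to 11.5%, and NaCl+MT replicate 1 runs to the left of the other 2 NaCl+MT libraries over most of its course.

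A gene name was available for 23 members, and they are described here by what their products do. Defence chemistry is represented by bx2 and bx3, by glu2 and by lox10. The cytochromes P450 encoded by bx2 and bx3 hydroxylate the indole that bx1 supplies in successive early steps towards the benzoxazinoid DIBOA. bx2 was at 547, 929.8 and 849.7 FPKM in CK, 2.85, 189 and 213 in NaCl and 599, 590.5 and 588 in NaCl+MT. bx3 was at 999, 1608 and 1393 FPKM in CK, 51.7, 425 and 425 in NaCl and 1227, 1238 and 1187 in NaCl+MT. In both genes NaCl replicate 1 was far below the other 2 NaCl libraries, and the 3 NaCl+MT libraries were within a few percent of each other. The differences NaCl minus CK were -2.51 and -2.15, and the NaCl+MT means were 76.4% and 91.3% of the CK means.

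glu2 encodes a beta-glucosidase related to glu1, the enzyme that frees benzoxazinoids from their stored glucosides. It was at 12.9, 10.6 and 8.75 FPKM in CK, 0.1, 0.04 and 0.433 in NaCl and 11.6, 12.3 and 10.8 in NaCl+MT. All 3 NaCl libraries were below 1 FPKM, so the drop did not rest on replicate 1, and the NaCl+MT mean was 107% of CK. lox10 encodes the lipoxygenase that starts the synthesis of green leaf volatiles. It was at 12.4, 13.7 and 5.08 FPKM in CK, 0.184, 0.236 and 0.209 in NaCl and 12.3, 9.402 and 12.95 in NaCl+MT, with the 3 NaCl libraries nearly equal and NaCl+MT inside the range of CK.

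**Figure D4:**
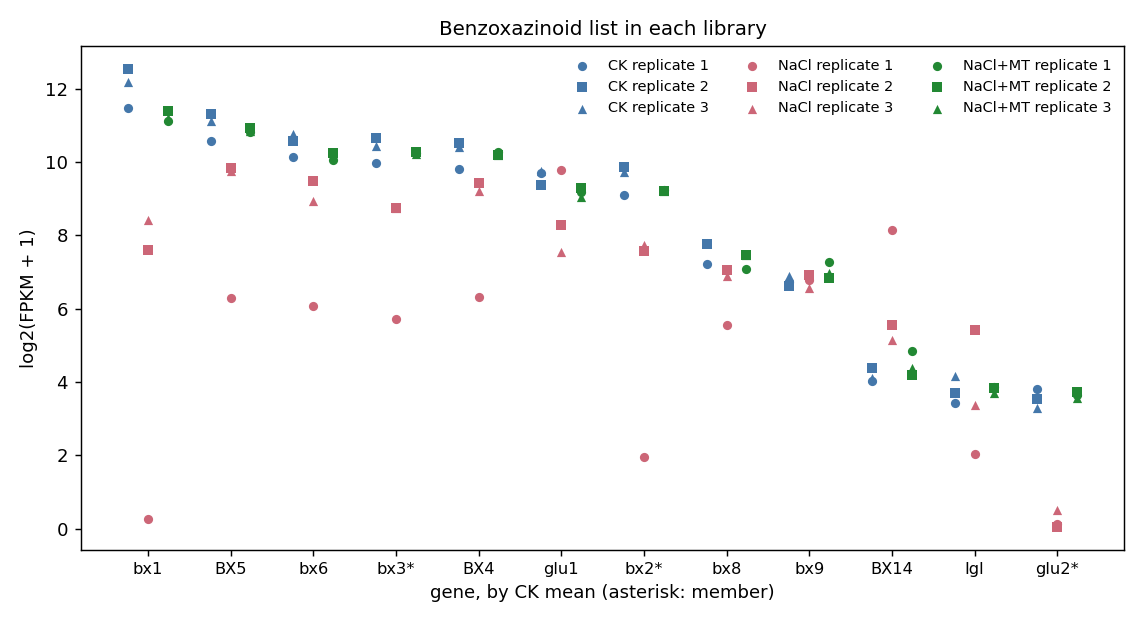
Level of the 12 genes of the benzoxazinoid list in each library, as log2(FPKM + 1), with genes ordered by CK mean and members marked by an asterisk. NaCl replicate 1 (red circle) is the lowest library for bx1, BX5, bx6, bx3, BX4, bx2, bx8 and Igl, and for BX14 and glu1 it is the highest.

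The other benzoxazinoid genes went the same way in part. Of 9 tested genes of the list outside the set, 4 fell and 1 rose with NaCl against CK by limma, where 12.4% of all tested genes fell and 13.6% rose. With NaCl+MT against NaCl 1 of the 9 rose and none fell (5 and 1 at an unadjusted p under 0.05), where 11.6% of all tested genes rose and 7.02% fell. The 2 comparisons share the NaCl libraries. These counts moved with single libraries. Without any 1 of the CK libraries 1 gene fell and none rose with NaCl, without any 1 of the NaCl+MT libraries 2 fell, and without NaCl replicate 2 as many as 6 fell. The 1 rise with NaCl+MT against NaCl went to 0 without any 1 of the NaCl+MT libraries and to 5, 4 and 2 without NaCl replicate 1, 2 and 3. The median log2 differences of the 9 genes were -1.10 and 0.85, beside 0.03 and 0.03 over all tested genes. bx1 was at 2832, 5971 and 4664 FPKM in CK, 0.211, 195 and 339 in NaCl and 2229, 2692 and 2359.9 in NaCl+MT. It fell with NaCl by limma, at a log2 difference of -6.63 (SE 1.61, limma adjusted p = 0.0132), and rose with NaCl+MT against NaCl, at 5.81 (SE 1.61, limma adjusted p = 0.0306). The second call was lost without any 1 of the NaCl+MT libraries, where the adjusted p over all single left-out libraries ran from 0.000213 to 0.0846. The size of both depended on the NaCl libraries, with a range over left-out libraries of -8.12 to -4.05 and 3.23 to 7.297, and without NaCl replicate 1 the first was -4.05 and the second 3.23. BX5 was at 1519, 2553 and 2209 FPKM in CK, 77.3, 919 and 871 in NaCl and 1793, 1932 and 1838 in NaCl+MT, and its fall, at -2.36 (SE 0.76, limma adjusted p = 0.0437), was lost without any 1 of the CK or NaCl+MT libraries (adjusted p 0.00785 to 0.111). bx6 was at 1125, 1529 and 1726 FPKM in CK, 67.01, 715 and 486 in NaCl and 1067, 1216 and 1218 in NaCl+MT, and its fall, at -2.32 (SE 0.68, limma adjusted p = 0.0306), was lost without any 1 of the CK libraries (adjusted p 0.00506 to 0.0892). Without NaCl replicate 1 the differences of BX5 and bx6 were -1.19 and -1.28, and over all left-out libraries they ran from -2.97 to -1.19 and from -2.98 to -1.28. BX14, named after its values were seen, was the 1 gene of the list that rose, at 15.4, 19.8 and 16.2 FPKM in CK, 281, 46.2 and 34.6 in NaCl and 27.6, 17.2 and 19.9 in NaCl+MT. NaCl replicate 1 was by far its highest library, and the rise, at 2.11 (SE 0.601, limma adjusted p = 0.0265), was lost without any 1 of the CK libraries (adjusted p 0.0026 to 0.0819). The 4th fall was that of bx8, also named after its values were seen, at -1.097 (SE 0.35, limma adjusted p = 0.0417), which was lost without any 1 library other than NaCl replicate 2 or 3 (adjusted p 0.0198 to 0.122).

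Jasmonate and other oxylipin genes were mixed. Of 27 tested genes outside the set, 6 rose and 7 fell with NaCl, where 13.6% and 12.4% of all tested genes did. With NaCl+MT against NaCl 7 rose and 3 fell, where 11.6% and 7.02% of all tested genes did. The median differences were -0.19 and 0.37, and the 3 falls became 1 without NaCl+MT replicate 2 or 3. lox6, a lipoxygenase, was at 14.3, 18.4 and 16.7 FPKM in CK, 4.04, 5.35 and 4.07 in NaCl and 26.5, 25.02 and 24.9 in NaCl+MT. It fell with NaCl, at a log2 difference of -1.67 (SE 0.14, limma adjusted p = 3.22e-05), and rose with NaCl+MT against NaCl, at 2.28 (SE 0.14, limma adjusted p = 1.12e-05), and its NaCl+MT libraries were all above its CK libraries. opr1 and opr2 encode 12-oxo-phytodienoate reductases. They moved the other way with salt, opr1 from 4.34, 4.31 and 4.46 FPKM in CK to 10.7, 21.99 and 19.6 in NaCl, at a log2 difference of 1.72 (SE 0.23, limma adjusted p = 0.000463), and opr2 from 2.83, 1.92 and 2.54 to 4.6, 14.7 and 16.2, at 1.75 (SE 0.37, limma adjusted p = 0.00664). opr1 fell again with NaCl+MT, at -1.65 (SE 0.23, limma adjusted p = 0.000871) against NaCl, while opr2 did not pass the test there, at -0.84 (SE 0.37, limma adjusted p = 0.148).

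Cell wall proteins made up a further group of members. expB4 encodes a beta-expansin, a protein that loosens walls without cutting them. It was at 17.9, 15.6 and 33.7 FPKM in CK, 1.87, 2.04 and 0.571 in NaCl and 8.01, 24.8 and 17.4 in NaCl+MT. NaCl replicate 3 was the lowest of the 9 libraries and NaCl+MT replicate 1 lay well below replicates 2 and 3. xth1, a xyloglucan endotransglucosylase/hydrolase, was at 12.1, 16.3 and 30.2 FPKM in CK, 2.59, 6.18 and 1.91 in NaCl and 19.6, 34.98 and 27.1 in NaCl+MT. Its NaCl+MT mean was 139% of CK, and CK replicate 3 lay inside the NaCl+MT range. prcw1, whose symbol is that of a proline-rich cell wall protein although the reference also lists unrelated names for it, was at 3.56, 6.16 and 5.67 FPKM in CK, 0.047, 0.463 and 0.304 in NaCl and 8.45, 6.83 and 7.13 in NaCl+MT. Every NaCl+MT library of prcw1 was above every CK library, and the difference NaCl+MT minus CK was 0.47.

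Other wall genes went both ways with NaCl. Of 25 tested genes of the list outside the set, 4 rose and 5 fell with NaCl (6 and 7 at an unadjusted p under 0.05), where 13.6% and 12.4% of all tested genes did. With NaCl+MT against NaCl 6 rose and 1 fell (14 and 2 unadjusted), where 11.6% and 7.02% did. The median differences were -0.05 and 0.51, beside 0.03 and 0.03 over all tested genes. The 5 falls became 8 without NaCl replicate 2, the 4 rises became 2 without CK replicate 2, and the 6 rises with NaCl+MT became 3 without NaCl+MT replicate 2 or 3 and 4 without NaCl replicate 3. CSLD1, a cellulose synthase-like gene that missed the set at the first limit, was at 3.78, 2.74 and 2.95 FPKM in CK, 0.014, 0.088 and 0.015 in NaCl and 2.22, 2.83 and 3.87 in NaCl+MT, and it fell by limma at -1.99 (SE 0.18, limma adjusted p = 4.04e-05) and rose against NaCl at 1.92 (SE 0.18, limma adjusted p = 0.000101). The alpha-expansin expA3 was at 6.93, 6.27 and 12.6 FPKM in CK, 0.607, 3.46 and 0.375 in NaCl and 3.85, 6.99 and 4.75 in NaCl+MT. It fell with NaCl at -2.11 (SE 0.41, limma adjusted p = 0.00436), and its rise with NaCl+MT, at 1.49975 (SE 0.41, limma adjusted p = 0.0288), was lost without NaCl replicate 1 or 3 or any 1 NaCl+MT library (adjusted p 0.00197 to 0.106). xet1 was at 152, 378 and 281 FPKM in CK, 25.01, 86.6 and 38.8 in NaCl and 73.8, 141 and 157 in NaCl+MT. It fell with NaCl at -2.49966 (SE 0.46, limma adjusted p = 0.00327), and the difference of NaCl+MT from NaCl did not pass the test, at 1.402 (SE 0.46, limma adjusted p = 0.059).

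tip2b encodes an aquaporin of the tonoplast, the membrane of the vacuole, through which water passes in expanding cells. It was at 16.2, 18.7 and 42.3 FPKM in CK, 1.28, 2.31 and 0.51 in NaCl and 15.3, 31.6 and 28.4 in NaCl+MT. Its NaCl mean was 5.31% of CK and its NaCl+MT mean 97.6%, with CK replicate 3 the highest library of all 9. Among 20 further tested aquaporin genes, 7 fell and 1 rose with NaCl, where 12.4% and 13.6% of all tested genes did. With NaCl+MT against NaCl 5 rose and 1 fell, where 11.6% and 7.02% of all tested genes did. The median differences were -0.66 and 0.65. The 5 rises became 8 without NaCl replicate 1, and 2 genes rose with NaCl without NaCl replicate 3. tip2, at 11.3, 14.9 and 18.2 FPKM in CK, 1.96, 6.5 and 3.24 in NaCl and 13.4, 15.1 and 17.8 in NaCl+MT, fell at -1.78 (SE 0.298, limma adjusted p = 0.00186) and rose against NaCl at 1.84 (SE 0.298, limma adjusted p = 0.00217). nip2b was near 0 in NaCl, at 2.23, 2.29 and 4.35 FPKM in CK, 0.081, 0.301 and 0 in NaCl and 1.36, 2.55 and 2.29 in NaCl+MT, with a fall at -1.78 (SE 0.23, limma adjusted p = 0.000448) and a rise at 1.43 (SE 0.23, limma adjusted p = 0.00228). The gene under the symbol sip1 was the riser, at 481, 404 and 258 FPKM in CK, 1419.8, 961 and 974 in NaCl and 719, 405 and 529.8 in NaCl+MT and 1.57 (SE 0.305, limma adjusted p = 0.00415). Its fall with NaCl+MT against NaCl, at -1.03 (SE 0.305, limma adjusted p = 0.0388), was lost without CK replicate 2, NaCl replicate 1 or 3, or NaCl+MT replicate 2 or 3 (adjusted p 0.0353 to 0.154). The symbol sip1 may also stand for a gene of another kind, so it counts as an aquaporin by symbol only.

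LTP3 carries the name of the lipid transfer proteins, small secreted proteins that bind fatty acids and are linked to cutin and wax at the plant surface. It was at 274, 267 and 232 FPKM in CK, 25.7, 54.7 and 43.1 in NaCl and 461, 301 and 375 in NaCl+MT. Every NaCl+MT library was above every CK library, and the NaCl+MT mean was 147% of CK, from 15.99% in NaCl. Of 6 other tested surface lipid genes, 2 fell and none rose with NaCl (3 and 0 at an unadjusted p under 0.05), where 12.4% and 13.6% of all tested genes did. With NaCl+MT against NaCl 4 rose and none fell (5 and 0 unadjusted), where 11.6% and 7.02% of all tested genes did. The median differences were -0.63 and 1.02. CER1, a gene of wax alkane synthesis, was at 8.02, 5.102 and 3.05 FPKM in CK, 1.11, 1.54 and 1.499 in NaCl and 16.7, 7.13 and 8.05 in NaCl+MT. Its fall, at -1.35 (SE 0.33, limma adjusted p = 0.0126), was lost without CK replicate 1 (adjusted p 0.0061 to 0.0526), and its rise against NaCl was at 2.20015 (SE 0.33, limma adjusted p = 0.00133). plt2 was at 224, 237 and 275 FPKM in CK, 127, 144 and 165 in NaCl and 336, 266 and 315 in NaCl+MT, with a fall at -0.75 (SE 0.18, limma adjusted p = 0.0107) and a rise at 1.07 (SE 0.18, limma adjusted p = 0.00239). fae1, named for fatty acid elongation, was at 15.8, 12.02 and 20.6 FPKM in CK, 11.6, 15.5 and 5.05 in NaCl and 20.7, 20.6 and 19.4 in NaCl+MT, and neither its difference with NaCl, -0.64 (SE 0.32, limma adjusted p = 0.163), nor that with NaCl+MT against NaCl, 0.98 (SE 0.32, limma adjusted p = 0.0548), passed the test.

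phytase1 encodes a phytase, the enzyme that releases phosphate from phytate, the phosphorus store of cereal grain. It was among the more abundant members, at 318, 314 and 363 FPKM in CK, 33.7, 57.3 and 53.2 in NaCl and 285, 334 and 353 in NaCl+MT. All NaCl libraries were far below the lowest CK library, and NaCl+MT lay within or close to the CK range at 97.6% of the mean. GLP2, which carries the name of the germin-like proteins of the cell wall and apoplast, was at 89.6, 219 and 189.5 FPKM in CK, 11.6, 31.3 and 23.7 in NaCl and 162, 144 and 167 in NaCl+MT. CK replicate 1 was well below the other CK libraries, and the NaCl+MT libraries lay between them. TMT, the symbol of a tocopherol methyltransferase of vitamin E synthesis, was at 13.9, 12.9 and 14.7 FPKM in CK, 1.23, 2.87 and 3.97 in NaCl and 12.4, 13.1 and 13.2 in NaCl+MT. It varied little within CK and within NaCl+MT, and NaCl replicate 1 was its lowest library.

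gar2 and asr1 carry names from hormone responses. gar2, named as gibberellin responsive, was at 222, 176 and 469.9 FPKM in CK, 27.2, 56.5 and 18.05 in NaCl and 178, 276 and 244 in NaCl+MT. It was highest in CK replicate 3 and its NaCl+MT mean was 80.4% of CK. asr1, from the family named for induction by abscisic acid, stress and ripening, was at 11.9, 9.58 and 17.7 FPKM in CK, 0, 0.233 and 0.891 in NaCl and 5.74, 13.3 and 12.5 in NaCl+MT. It was lowered with salt in these seeds to 2.87% of CK and was listed at 0 in NaCl replicate 1.

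KIN13, also listed as krp13, encodes a kinesin-related protein, a motor that moves on or acts on microtubules. It was at 10.7, 6.96 and 5.77 FPKM in CK, 0.221, 0.505 and 0.134 in NaCl and 4.43, 5.597 and 6.34 in NaCl+MT, with all NaCl libraries below 1 FPKM and a NaCl+MT mean 69.9% of CK. LIM12 carries the name of LIM-domain proteins, some of which bundle actin in plants. It was at 5.397, 4.83 and 8.52 FPKM in CK, 0.783, 0.389 and 0 in NaCl and 3.86, 6.99 and 6.897 in NaCl+MT, and it was listed at 0 in NaCl replicate 3, the shallowest library. Of 23 other tested kinesin and tubulin genes, 11 fell and none rose with NaCl (13 and 0 at an unadjusted p under 0.05), where 12.4% and 13.6% of all tested genes did. With NaCl+MT against NaCl 12 rose and none fell (14 and 0 unadjusted), where 11.6% and 7.02% of all tested genes did. The median differences were -0.57 and 0.51. The 12 rises became 6 and 7 without NaCl+MT replicate 2 and 3. kin2 (GRMZM2G136838), at 8.47, 6.34 and 5.96 FPKM in CK, 0.013, 0.336 and 0.145 in NaCl and 3.44, 3.98 and 5.67 in NaCl+MT, fell at -2.76 (SE 0.198, limma adjusted p = 9.81e-06) and rose against NaCl at 2.19 (SE 0.198, limma adjusted p = 8.05e-05). KIN8, at 7.78, 5.003 and 4.06 FPKM in CK, 0.378, 1.24 and 0.571 in NaCl and 4.24, 4.13 and 3.895 in NaCl+MT, fell at -1.93 (SE 0.23, limma adjusted p = 0.00025) and rose at 1.59 (SE 0.23, limma adjusted p = 0.00116). The tubulin TUB8 was low throughout, at 4.01, 2.78 and 2.65 FPKM in CK, 0.014, 0.276 and 0.215 in NaCl and 1.94, 1.93 and 2.37 in NaCl+MT, with a fall at -1.82 (SE 0.17, limma adjusted p = 5.53e-05) and a rise at 1.402 (SE 0.17, limma adjusted p = 0.000439).

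The transcription factor list, built from gene symbols, held 2 of the 114 members and 228 of the 22379 tested genes. bHLH137 and bHLH173 belong to the basic helix-loop-helix family. bHLH137 was at 9.27, 6.97 and 10.7 FPKM in CK, 0.418, 2.23 and 1.84 in NaCl and 10.2, 8.58 and 8.36 in NaCl+MT, and bHLH173 at 6.66, 4.93 and 4.503 FPKM in CK, 0.26, 0.659 and 0.828 in NaCl and 6.36, 5.09 and 6.48 in NaCl+MT. Both were lowest in NaCl replicate 1 and both had NaCl+MT means close to CK, at 101% and 111%. hsbp1 has the symbol of heat shock factor binding proteins. It was at 32.4, 86.4 and 75.02 FPKM in CK, 5.29, 1.002 and 0.041 in NaCl and 18.3, 61.6 and 62.9 in NaCl+MT, the largest drop among the named members at -4.398, and its 3 NaCl libraries were far apart, with replicate 1 the highest. Of 226 other tested transcription factor genes, 27 rose and 48 fell with NaCl, where 13.6% and 12.4% of all tested genes did. With NaCl+MT against NaCl 56 rose and 17 fell, where 11.6% and 7.02% of all tested genes did. The median differences were -0.04 and 0.20. The 48 falls became 30 without CK replicate 1, and the 17 falls with NaCl+MT became 7 without NaCl+MT replicate 2 or 3 and 11 without NaCl replicate 1.

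Among those 226, EREB179, an ERF family factor, was at 35.6, 63.6 and 32.2 FPKM in CK, 476, 226 and 307 in NaCl and 134, 96.1 and 126 in NaCl+MT, with a rise at 2.91 (SE 0.31, limma adjusted p = 0.00011) with NaCl and a fall at -1.44 (SE 0.31, limma adjusted p = 0.00922) with NaCl+MT against NaCl. EREB171, of the same family, was at 12.99, 10.3 and 9.8 FPKM in CK, 1.39, 3.54 and 1.96 in NaCl and 7.19, 9.25 and 9.11 in NaCl+MT, with a fall at -1.91 (SE 0.23, limma adjusted p = 0.000234) and a rise at 1.57 (SE 0.23, limma adjusted p = 0.00111). MYBR41, a MYB-related factor, was listed at 0 in all NaCl libraries, with 2.62, 2.99 and 4.79 FPKM in CK and 0.56, 1.96 and 0.886 in NaCl+MT. It fell at -2.13 (SE 0.25, limma adjusted p = 0.000206), and its rise against NaCl, at 1.04 (SE 0.25, limma adjusted p = 0.0153), did not hold when NaCl+MT replicate 2 was left out (adjusted p 0.0125 to 0.0561). With 0 in every NaCl library these fitted values depend on the pseudocount.

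The remaining named members are BURP3, LOL3, pcr1 and kin1. BURP3, with the BURP domain of secreted plant proteins, was at 58.7, 60.03 and 88.8 FPKM in CK, 12.3, 10.8 and 6.05 in NaCl and 50.6, 64.6 and 53.8 in NaCl+MT. LOL3 was at 5.64, 8.78 and 11.7 FPKM in CK, 0.019, 0.371 and 0.082 in NaCl and 1.83, 13.9 and 3.403 in NaCl+MT, and its NaCl+MT replicates 1 and 3 lay below every CK library while replicate 2 lay above them all. pcr1 was at 17.4, 16.7 and 21.4 FPKM in CK, 0.81, 6.35 and 4.29 in NaCl and 16.2, 13.8 and 18.7 in NaCl+MT, with NaCl replicate 1 well below the other 2. kin1 (GRMZM2G158394), which is not the kinesin listed as krp1, was at 24.1, 32.5 and 14.1 FPKM in CK, 0.719, 0.807 and 0.532 in NaCl and 28.7, 23.3 and 32.02 in NaCl+MT. Its NaCl libraries were all under 1 FPKM and its NaCl+MT mean was 119% of CK. The kinesin and tubulin list held 2 members by symbol, and whether kin1 encodes a kinesin was not settled from its symbol.

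**Figure D5:**
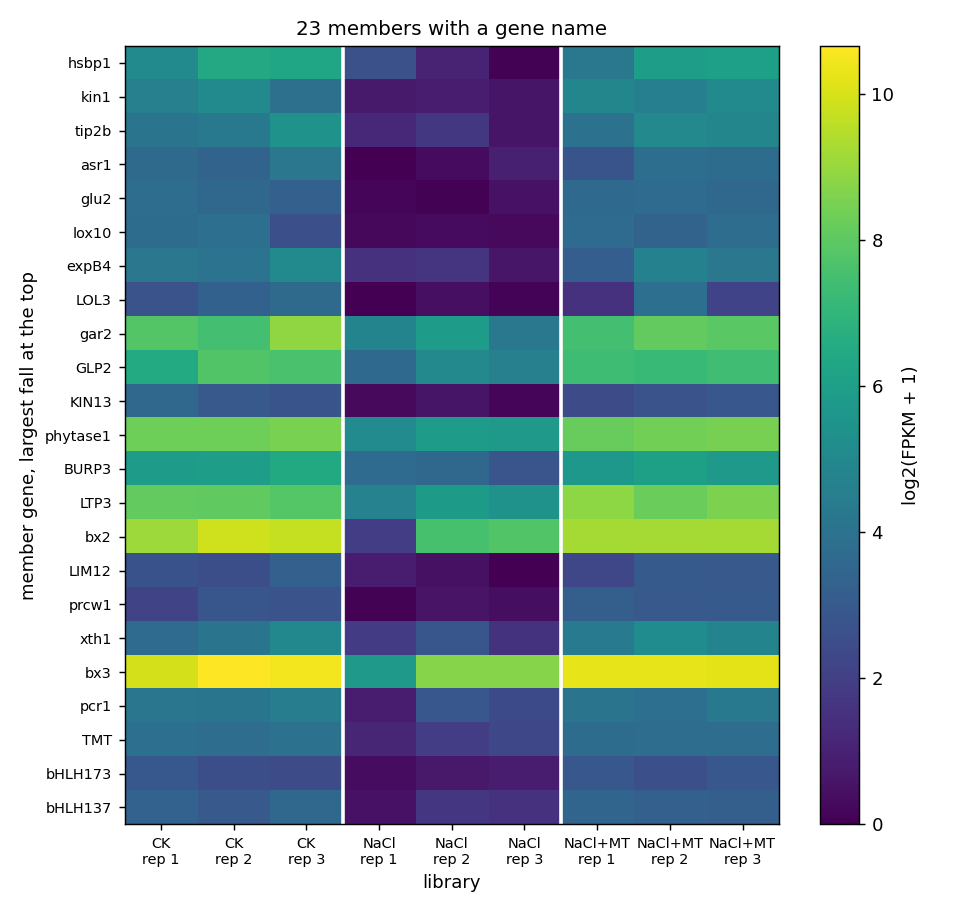
Level of the 23 members with a gene name in each of the 9 libraries, as log2(FPKM + 1) by colour, ordered from the largest difference NaCl minus CK at the top. The 3 NaCl columns are darker than the others in every line, and bx2 and bx3 are darkest in NaCl replicate 1.

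The most abundant members have no gene name in the reference. GRMZM2G430807 was at 2672, 3161 and 3374 FPKM in CK, 217, 368 and 1075 in NaCl and 2315, 2592 and 2455 in NaCl+MT, and NaCl replicate 3 kept a much higher level than replicates 1 and 2. GRMZM2G000326 was at 2858, 2234 and 2187 FPKM in CK, 758, 223 and 195 in NaCl and 3121, 2117 and 2459.8 in NaCl+MT, with NaCl replicate 1 as the highest of its group, the reverse of bx2. AC206425.3_FG002 was at 1735, 1624 and 2437 FPKM in CK, 155, 269.6 and 288 in NaCl and 1230.0, 1499 and 1622 in NaCl+MT, and its NaCl+MT libraries were all below its lowest CK library. Next by CK mean among the members without a name were GRMZM2G096680 at 1139, 882 and 876 FPKM in CK, 314, 83.1 and 68.9 in NaCl and 1052, 828 and 925 in NaCl+MT, then GRMZM2G020423 at 557, 498 and 651 FPKM in CK, 51.1, 80.7 and 106 in NaCl and 586, 463 and 471 in NaCl+MT. GRMZM2G124684 was at 220.0, 308 and 338 FPKM in CK, 24.7, 28.3 and 85.7 in NaCl and 155, 300.0 and 236 in NaCl+MT, and NaCl replicate 3 was again above replicates 1 and 2.

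The largest drop of all was in AC217560.3_FG001, at 83.8, 53.6 and 80.98 FPKM in CK, 0.131, 2.79 and 0.424 in NaCl and 31.4, 57.8 and 65.5 in NaCl+MT. Its NaCl mean was 1.53% of CK, and at -0.49 its NaCl+MT level was just inside the second limit. GRMZM2G050412, with a difference NaCl minus CK of -4.27, was at 25.8, 25.2 and 30.7 FPKM in CK, 0.092, 0.531 and 0.759 in NaCl and 20.4, 27.8 and 38.5 in NaCl+MT, and all of its NaCl libraries were under 1 FPKM. hsbp1, described above, ranked between these, and kin1 came next at -3.87. Then followed GRMZM2G099454, GRMZM2G110567, GRMZM2G105587, GRMZM2G163406, GRMZM2G070912 and GRMZM6G198866, with differences of -3.86, -3.81, -3.77, -3.75, -3.72 and -3.57. Their NaCl+MT means were 84.5%, 88.1%, 159%, 90.99%, 119.8% and 118% of CK.

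Some members went past CK in NaCl+MT. The 7 whose NaCl+MT libraries were all above CK were LTP3 and prcw1, already described, and GRMZM2G112210, GRMZM2G114552, EF517601.1_FG016, GRMZM5G851266 and GRMZM2G176998. GRMZM2G112210 had the highest ratio to CK, 201%, at 11.05, 9.64 and 2.97 FPKM in CK, 0.334, 0.548 and 1.86 in NaCl and 18.7, 12.5 and 16.2 in NaCl+MT. Its CK replicate 3 was far below the other CK libraries. GRMZM2G114552 was at 63.4, 85.7 and 96.04 FPKM in CK, 7.998, 13.9 and 12.9 in NaCl and 125, 155 and 168 in NaCl+MT, and EF517601.1_FG016 at 148, 179 and 113 FPKM in CK, 15.1, 26.9 and 17.7 in NaCl and 275, 226 and 278 in NaCl+MT. GRMZM5G851266 was at 31.01, 31.2 and 34.2 FPKM in CK, 3.502, 10.4 and 3.39 in NaCl and 48.5, 49.8 and 52.5 in NaCl+MT, with replicates of CK and of NaCl+MT close together. GRMZM2G176998 exceeded CK by less, at 52.03, 44.8 and 55.7 FPKM in CK, 8.42, 4.34 and 5.67 in NaCl and 59.7, 59.9 and 63.6 in NaCl+MT. GRMZM2G391272, at 162% of CK, and GRMZM2G105587 also had high means in NaCl+MT, but their groups overlapped.

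At the other end, GRMZM2G002147 was at 14.6, 11.4 and 14.04 FPKM in CK, 0.269, 0.782 and 0.155 in NaCl and 8.87, 8.81 and 9.93 in NaCl+MT, and GRMZM2G171248 at 8.35, 6.102 and 6.18 FPKM in CK, 0.092, 0.274 and 0.16 in NaCl and 4.11, 4.305 and 5.41 in NaCl+MT. In both, every NaCl+MT library was below every CK library. GRMZM2G410766 was at 175, 199 and 296 FPKM in CK, 18.9, 51.1 and 47.2 in NaCl and 129, 209 and 140.5 in NaCl+MT, and GRMZM2G177298 at 9.49, 5.35 and 13.2 FPKM in CK, 0.599, 2.52 and 0.294 in NaCl and 4.44, 7.02 and 7.82 in NaCl+MT. In GRMZM2G410766 and GRMZM2G177298 the CK and NaCl+MT groups overlapped. GRMZM2G002147, GRMZM2G171248, GRMZM2G410766 and GRMZM2G177298 met the rule in 7, 6, 6 and 5 of the 9 cases with 1 library left out.

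Of the 114 members, 97 matched exactly 1 gene of a RefSeq table (Zm-B73-REFERENCE-NAM-5.0), 3 matched several and 14 matched none. That assembly is not the build of the files, so only gene order was read from it. GRMZM2G070912 and GRMZM6G198866 matched the same RefSeq gene, and their FPKM stood at a ratio of 0.709 to 0.749 in every library, so they may be 1 locus counted under separate IDs. GRMZM2G000326 and GRMZM2G096680 are neighbours and stood at a ratio of 0.337 to 0.415 in every library, and reads could be split between them if they are near-identical copies. The levels of these 4 genes are uncertain to that extent.

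In the order of protein-coding genes, 4 pairs of members were direct neighbours and 7 pairs, these included, lay within 5 steps. gar2, GRMZM2G391272 and GRMZM2G091534 stood side by side. GRMZM2G391272 was at 10.9, 9.48 and 20.2 FPKM in CK, 1.75, 4.75 and 1 in NaCl and 26.4, 23.4 and 15.9 in NaCl+MT, and GRMZM2G091534 at 28.1, 23.3 and 59.3 FPKM in CK, 6.14, 13.4 and 5.18 in NaCl and 42.03, 47.9 and 28.5 in NaCl+MT. In all 3 of these neighbours NaCl replicate 2 was the highest NaCl library and CK replicate 3 the highest CK library. GRMZM2G048136 and GRMZM2G349791 were also side by side, at 5.22 ± 1.16 and 209 ± 28.7 FPKM in CK (SD, n = 3), and phytase1 lay 4 steps from GRMZM2G020423, prcw1 5 steps from glu2 and GRMZM2G050412 2 steps from GRMZM2G163406.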

How the data were processed

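RNA was measured in 9 libraries of seeds, 3 per group, built from total RNA with an mRNA kit. FPKM values of 39301 genes were deposited, made by the authors. Per the submitters' processing notes, the tools were featureCounts, HISAT2 and DESeq2 and the build B73 RefGen_v3, with no versions or roles; the annotation is not given in the sources used here.

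The 22379 genes that reached 1 FPKM in 3 or more libraries were fitted as log2(FPKM + 1) with limma 3.58.1 in R 4.3.3: 3 group means over all 9 libraries, a mean-variance trend, and 2-sided moderated tests with Benjamini-Hochberg adjustment over the tested genes at a threshold of 0.05. Such log2 differences understate the change of genes near 0. Differences of members use log2 of the group mean FPKM + 1. All 114 members passed the filter, through the groups where they were high. On simulated data, only the limma contrast of NaCl against CK was checked, with shifts placed in genes well above 0 and independent noise. The rule for members, changes of genes near 0 and uneven replicates were not covered. For relative depth, a value within 0.06 reads of a whole number was taken as whole; since counts are unknown, no counting intervals were computed.

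The members and gene lists were chosen with earlier results of these data known. The text names members with a gene symbol, the 10 with the highest CK mean, the 10 with the largest difference NaCl minus CK, the 5 lowest and 5 highest in NaCl+MT minus CK, and the 3 genes on each side of each threshold. It also names up to 3 other tested genes per list that holds a member by function. These were the genes of the list with the largest change in NaCl against CK, so their limma values are not typical of the list. Lists were built from gene symbols, and those symbols and the gene order come from RefSeq. Promoter motifs and protein sequences of the members were not analysed here. Strand handling of the counting is not given in the sources used here, so overlapping genes may share reads.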

Additional observations from a re-analysis of the deposited data

How the results depend on the processing

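The size of the set depends on its limits. With a pseudocount of 0.1 in place of 1 the rule took 411 genes, with 0.5 it took 183; a first limit of -1.5 gave 313 and of -2.5 gave 61; a second limit of -1 gave 243 and of -0.25 gave 59. Median-ratio scaling gave 94, quantile normalization 95 and group medians 130. With 1 library left out the number ran from 96 to 161. The median difference NaCl minus CK was -3.06 with a pseudocount of 0.1 and -2.70 to -2.38 with 1 library left out, and that of NaCl+MT minus CK -0.28 to -0.10. By limma, 5808 genes differed between NaCl and CK, 4164 between NaCl+MT and NaCl and 215 between NaCl+MT and CK. At least 5 FPKM in 3 libraries gave 3684, 2605 and 123, and no filter gave 54 for NaCl+MT against CK. Leaving out 1 library gave 3849 to 6017, 2280 to 4220 and 6 to 873, and the last count was 873 without NaCl replicate 1 and 6 without NaCl+MT replicate 3. Without both NaCl replicates 1 and 3, an alternative chosen after seeing the data, the counts were 2446, 1641 and 1065, where the lone NaCl library is assumed to vary like the other groups, and the rule took 95 genes. Of the calls between NaCl+MT and CK, 152 were higher and 63 lower, but 71 and 78 with median-ratio scaling and 86 and 88 with quantile normalization. Between NaCl and CK the calls split into 3042 higher and 2766 lower, and 2627 and 3189 with median-ratio scaling. Between NaCl+MT and NaCl they split into 2592 and 1572, and 2218 and 1880 with quantile normalization. The labels do not say whether the replicate numbers pair the samples. Deviations from the group mean correlated at -0.37 to 0.15 between same-numbered libraries and at -0.22 to 0.24 between others. Since the deviations sum to 0 within a group, these values cannot settle whether samples were paired. With a replicate block the counts were 4934, 3498 and 72. The cause of these shifts was not tested. For the genes named from the lists for their large change with NaCl, 691 results under an alternative kept their direction and side of the threshold. Of the others, 41 lost the call and 14 gained one, and none reversed. Since these genes were chosen for that change and the alternatives reuse the same libraries, the kept directions say little about other genes. Depth limits most what can be said of members near 0 in NaCl replicate 3. The alternative motif definitions were not run.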

Other observations

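Several gene groups of a growing seedling held no member of the set. The counts below stand beside shares over all tested genes of 12.4% that fell and 13.6% that rose with NaCl. With NaCl+MT against NaCl, 11.6% of all tested genes rose and 7.02% fell. Of 10 tested histone genes, 7 fell and none rose with NaCl against CK by limma (9 and 0 at an unadjusted p under 0.05), and 5 rose and none fell with NaCl+MT against NaCl (10 and 0 unadjusted), with median log2 differences of -1.25 and 1.02. These counts rest on single libraries: the 7 falls became 0, 4 and 1 without CK replicate 1, 2 and 3 and 4 without NaCl replicate 3, and the 5 rises became 10 without NaCl replicate 2 and 3 without NaCl replicate 3 or NaCl+MT replicate 1. Of 46 auxin genes, 16 fell and 3 rose with NaCl, and 14 rose and 1 fell with NaCl+MT against NaCl, with medians of -0.35 and 0.35. The 16 falls became 9 without CK replicate 1, the 3 rises became 1 without CK replicate 1 or 3 or NaCl replicate 1, and the 14 rises with NaCl+MT became 8 and 7 without NaCl+MT replicate 2 and 3. Terpene genes were split, with 7 rises and 6 falls among 19 with NaCl and 4 of each with NaCl+MT against NaCl, and the 7 rises became 3 without CK replicate 1 and 4 without CK replicate 2 or 3, NaCl replicate 1 or 3 or NaCl+MT replicate 2, while the 4 falls became 1 or 2 without CK replicate 2, NaCl replicate 1 or 3 or any 1 NaCl+MT library. Of 15 photosynthesis genes, 4 fell and none rose with NaCl (7 and 0 unadjusted), and 6 rose and none fell with NaCl+MT against NaCl (7 and 1 unadjusted), and the 4 falls became 2 without CK replicate 2. The cell cycle list of 28 tested genes outside the set had 12 falls and 1 rise with NaCl and 12 rises and 1 fall with NaCl+MT against NaCl. It holds a member only because the symbol krp13 is shared between kinesins and cell cycle inhibitors. In the shoot patterning list, which holds hsbp1 only through its synonym SBP1, 20 of 62 genes fell and 5 rose with NaCl, and 21 rose and 1 fell with NaCl+MT against NaCl, and the 5 rises became 2 without CK replicate 2 and 3 without CK replicate 3 or NaCl replicate 3.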
